A study of Mus musculus with 4 samples.

Results

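Plasmacytoid dendritic cells (pDCs) are described here through 8 of their genes, followed across 4 bulk RNA-seq libraries of mouse bone marrow. The genes are Siglech, Tcf4, Spib, Runx2, Ccr9, Ly6d, Pacsin1 and Klk1, listed as pDC genes that interferon does not induce. All 8 were among the 55399 genes of the deposited count table, and all 8 passed the filter on low counts that left 16393 genes tested. They were chosen with earlier results of the same comparison known, so their differences between genotypes are given as a description, without a test of the 8 as a set. Nothing is read from how many of them were called. The libraries were labelled Lsk cells, the common name of a marrow fraction without lineage markers but with Sca-1 and Kit, in which haematopoietic stem cells are found. The label Ppm1bfl/fl, for loxP-flanked alleles of the phosphatase gene Ppm1b, was on 2 libraries, and Ppm1bCKO, for its conditional knockout, on the other 2. No further allele, treatment, age or Cre line was given in the sources used here, nor whether replicates came from separate mice. P-values therefore measure only the spread between these libraries, which may be technical between the Ppm1bfl/fl libraries.

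pDCs form in the marrow from progenitors that depend on the receptor Flt3. They carry Toll-like receptors 7 and 9 in their endosomes, and when these meet viral RNA or DNA the cells release large amounts of type I interferon. The E protein encoded by Tcf4 (also called E2-2) sets and maintains pDC identity, and it binds E-box motifs. The Ets factor Spi-B and the Runt factor Runx2 act beside it. Several of the 8 genes are also used by other marrow cells: Spib and Ly6d by B lineage cells, Runx2 by osteoblasts and Tcf4 by many progenitors.

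Promoter sequence was taken from RefSeq (GRCm38.p6, the build that mm10 names) for 6 of the 8 genes, as the 250 bases before the start site on the gene's strand. The E-box (CANNTG, which reads as the same pattern on both strands) occurred in 5 of these 6 promoters, against 66.2% of the 32851 promoters in the RefSeq table. Of the sequences shown, 3 belong to genes that stood higher in both Ppm1bCKO libraries and 1, Runx2, to a gene whose genotypes overlapped. Capitals mark the E-boxes, and the intervals are chr7:55767934-55768183 (+) for Siglech, chr7:44532072-44532321 (-) for Spib, chr9:123766961-123767210 (+) for Ccr9 and chr17:44814628-44814877 (-) for Runx2.
Siglech: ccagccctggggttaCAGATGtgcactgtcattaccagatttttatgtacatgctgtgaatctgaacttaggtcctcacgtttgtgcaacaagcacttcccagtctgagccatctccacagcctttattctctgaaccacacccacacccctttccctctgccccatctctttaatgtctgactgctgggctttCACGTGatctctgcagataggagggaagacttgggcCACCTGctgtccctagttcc
Spib: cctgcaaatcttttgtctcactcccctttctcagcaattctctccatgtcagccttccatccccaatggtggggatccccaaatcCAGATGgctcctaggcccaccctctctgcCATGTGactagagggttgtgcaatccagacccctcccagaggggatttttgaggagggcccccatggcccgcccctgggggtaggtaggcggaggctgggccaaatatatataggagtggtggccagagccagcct
Ccr9: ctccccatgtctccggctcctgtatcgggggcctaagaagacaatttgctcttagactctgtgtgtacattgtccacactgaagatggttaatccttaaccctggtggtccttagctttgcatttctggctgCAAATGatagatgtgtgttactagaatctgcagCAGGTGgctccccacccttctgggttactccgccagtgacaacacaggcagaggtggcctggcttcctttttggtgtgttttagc
Runx2: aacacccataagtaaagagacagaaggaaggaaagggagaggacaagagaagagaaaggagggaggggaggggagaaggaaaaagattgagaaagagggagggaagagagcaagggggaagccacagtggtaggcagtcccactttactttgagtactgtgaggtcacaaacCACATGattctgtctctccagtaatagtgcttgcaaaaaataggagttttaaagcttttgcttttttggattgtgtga

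The Siglech promoter held 3 E-boxes, the nearest of them, CACCTG, beginning 20 bases before the start site. Spib and Ccr9 held 2 each, Klk1 held 2, Runx2 held 1 and Pacsin1 held 0. The Ets core GGAA, searched on both strands, occurred in all 6 promoters and in 93.4% of all promoters. The PU-box core GAGGAA, a longer form that contains the Ets core, occurred in 0 of the 6 and in 23.3% of all promoters. The Runt site TGTGGT (both strands) occurred in Siglech, Runx2 and Pacsin1 and in 14% of all promoters. In Runx2 it overlapped the E-box. These matches describe letters in a short window and do not show binding.

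Total counts ran from 22393973 to 30045382 per library. Ppm1b, the targeted gene, ran from 80.7 to 82.5 CPM in Ppm1bfl/fl and from 84.3 to 121 CPM in Ppm1bCKO (CPM, library-scaled counts, are TMM-normalised throughout). It was thus not lower under the knockout label. Because the count sums all exons, it cannot show a deletion of some of them, and each direction rests on the labels alone. The library labelled Ppm1bCKO replicate 2 stood apart: its root mean square log2 difference from the median library was 0.55, against 0.28 to 0.34 in the others. It also held 2 counts of 4 Y-linked genes, where the others held 5870 to 6396, so the Ppm1bCKO libraries did not both come from 1 animal. Among the genes that define the sorted fraction, Kit ran from 121 to 228 CPM and Ly6a, which encodes Sca-1, from 17.7 to 22.2 CPM. None of the 12 markers of that fraction was at 0 in every library, and neither was any of the 20 B lineage or 18 T and NK cell markers. Transcripts of these marker genes were thus detected in the RNA. The Lsk markers summed to 665 and 539 CPM in Ppm1bfl/fl and to 562 and 499 CPM in Ppm1bCKO (replicates 1 and 2). B lineage markers summed to 333 and 338 CPM, then 488 and 966 CPM, in the same order. T and NK cell markers summed to 324 and 276 CPM, then 313 and 332 CPM. Whether the libraries held cells from outside the labelled fraction was not tested.

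Of the 8 pDC genes, 6 stood higher in both libraries labelled Ppm1bCKO than in either Ppm1bfl/fl library, and the libraries overlapped for Tcf4 and Runx2. Over all tested genes, 20.6% stood higher without overlap, and because the members were chosen on this comparison nothing is read from their count. From Ppm1bCKO replicate 1 to replicate 2, the log2 difference was 0.09 for Siglech and from -0.10 to -0.42 for Pacsin1, Tcf4, Runx2 and Ccr9. Klk1, Spib and Ly6d were higher in replicate 2, by 0.62, 1.15 and 1.25. Of the 8, edgeR called 0 at an adjusted p under 0.05, where it called 0.372% of all tested genes in either direction and 0.061% as higher. At an unadjusted p under 0.05 there were 5 (6.44% of all tested genes). DESeq2 called 4 (1.2% of the genes to which it gave an adjusted p). Nothing is read from these counts either, for the same reason. In bulk RNA, more pDCs, more RNA of these genes per cell and RNA from other cells that use these genes cannot be told apart.

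**Figure D1:**
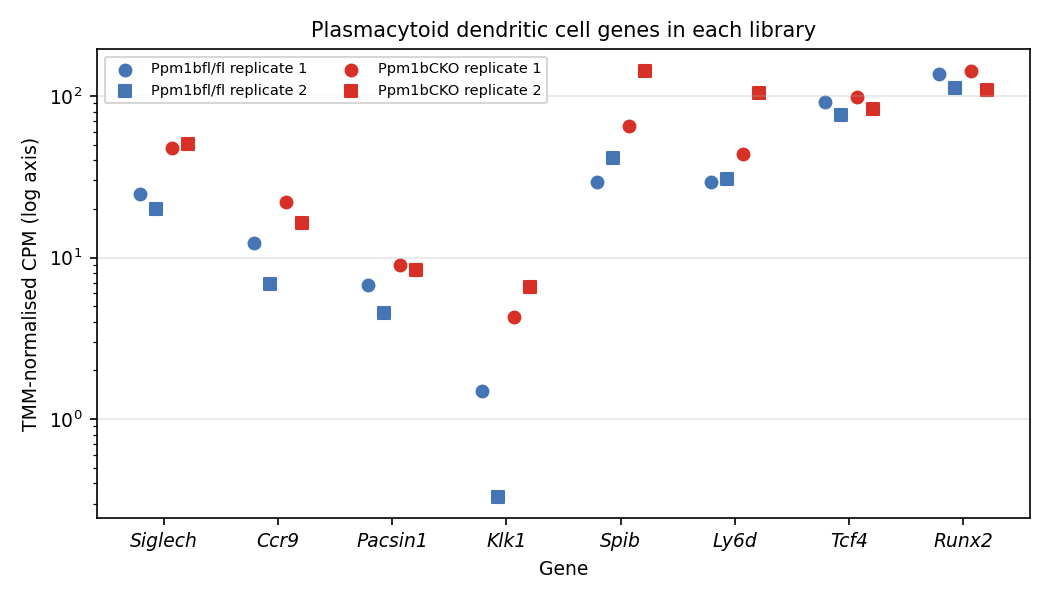
TMM-normalised CPM on a log axis for the 8 genes, with 1 point per library (blue, Ppm1bfl/fl; red, Ppm1bCKO; circles, replicate 1; squares, replicate 2). The red points lie above both blue points for Siglech, Ccr9, Pacsin1, Klk1, Spib and Ly6d, and the colours overlap for Tcf4 and Runx2.

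Siglech encodes a sialic acid-binding lectin on the pDC surface that signals through the adaptor DAP12. It lies on chromosome 7 (55768178 to 55778925 in mm10, as for all coordinates from the table, ENSMUSG00000051504.18) and shared no exonic base with another gene of the table. Siglech stood at 24.9 and 19.96 CPM in Ppm1bfl/fl replicates 1 and 2, and at 47.4 and 50.4 CPM in Ppm1bCKO replicates 1 and 2. The genotypes were far apart beside the distance within each. The log2 fold change of Ppm1bCKO over Ppm1bfl/fl was 1.12 ± 0.19 (standard error, as for all log2 fold changes here). With each library left out in turn it lay between 0.97 and 1.29, and it was 1.08 without Ppm1bCKO replicate 2.

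Ccr9 encodes the receptor for the chemokine CCL25, which guides pDCs to the gut and progenitors to the thymus. It lies on chromosome 9 (123678439 to 123784330, ENSMUSG00000029530.16). Ccr9 stood at 12.3 and 6.83 CPM (Ppm1bfl/fl) against 22.1 and 16.5 CPM (Ppm1bCKO). Replicate 2 was the lower library in both genotypes, and the gap between Ppm1bfl/fl replicate 1 and Ppm1bCKO replicate 2 was smaller than the gap within either genotype. Its log2 fold change was 1.02 ± 0.31 and ranged from 0.65 without Ppm1bfl/fl replicate 2 to 1.49 without Ppm1bfl/fl replicate 1. Of its 10260 exonic bases, 2223 were shared with 3 other annotated genes on one strand or the other. Whether counting used strand is not given in the sources used here, so reads from those bases cannot be assigned with certainty. Among T and NK cell markers, the CD3 subunit gene Cd3e ran from 17.0 to 19.6 CPM, and its genotypes overlapped. Cd3d and Cd3g, which encode other CD3 subunits, were higher in both Ppm1bCKO libraries. Cd3d stood at 10.7 and 9.09 CPM (Ppm1bfl/fl) against 12.9 and 15.5 CPM (Ppm1bCKO). Cd3g stood at 15.9 and 13.8 CPM (Ppm1bfl/fl) against 16.6 and 20.4 CPM (Ppm1bCKO). The summed level of the 18 markers was 276 to 324 CPM in Ppm1bfl/fl and 313 to 332 CPM in Ppm1bCKO. Single markers differed more, with log2 fold changes from -0.58 to 1.32, of which 9 were above 0 and 9 below. The part of T and NK cells in the value of Ccr9 was not tested.

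Pacsin1 encodes a membrane-shaping adaptor of endocytosis, known from neurons and needed by pDCs for a full interferon response to Toll-like receptor 7 and 9 ligands. It lies on chromosome 17 (27655509 to 27711482, ENSMUSG00000040276.15). Pacsin1 stood at 6.80 and 4.54 CPM (Ppm1bfl/fl) against 9.02 and 8.43 CPM (Ppm1bCKO). Both Ppm1bCKO libraries were higher, by a margin over Ppm1bfl/fl replicate 1 that was smaller than the gap between the Ppm1bfl/fl libraries. The log2 fold change was 0.62 ± 0.28, with 0.36 to 0.94 when a library was left out.

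Klk1 encodes a tissue kallikrein, a secreted serine protease whose transcript marks pDCs in mouse blood cell surveys. It lies on chromosome 7 (44225360 to 44229618, ENSMUSG00000063903.5), beside a family of closely related kallikrein genes, so the assignment of its reads is uncertain. Klk1 had the fewest counts of the 8, not scaled for its length, with 40 and 10 counts in Ppm1bfl/fl and 97 and 157 counts in Ppm1bCKO, or 1.503, 0.33, 4.27 and 6.62 CPM. The Ppm1bCKO libraries were both higher, but between the Ppm1bfl/fl libraries the log2 difference of replicate 2 over replicate 1 was -1.95. Its log2 fold change of 2.58 ± 0.59 had the largest standard error of the 8 and ranged from 1.85 to 4.01 when a library was left out.

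Spib encodes the Ets factor Spi-B, which pDC development in the mouse marrow needs and which mature B cells also use. It lies on chromosome 7 (44525993 to 44532071, ENSMUSG00000008193.13). Spib stood at 29.2 and 41.5 CPM (Ppm1bfl/fl) against 64.8 and 144 CPM (Ppm1bCKO). The genotypes did not overlap, but Ppm1bCKO replicate 2 was well above replicate 1. The log2 fold change of 1.56 ± 0.37 was 0.87 without Ppm1bCKO replicate 2 and was 2.02 without Ppm1bCKO replicate 1.

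Ly6d encodes a small GPI-anchored surface protein that marks B-biased lymphoid progenitors and a lymphoid source of pDCs. It lies on chromosome 15 (74762056 to 74763620, ENSMUSG00000034634.7). Ly6d stood at 29.6 and 30.6 CPM (Ppm1bfl/fl) against 44.0 and 104 CPM (Ppm1bCKO). The Ppm1bfl/fl libraries were nearly equal, whereas Ppm1bCKO replicate 2 was far above replicate 1. Its log2 fold change of 1.30 ± 0.36 became 0.55 without Ppm1bCKO replicate 2 and 1.79 without Ppm1bCKO replicate 1.

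Tcf4, the master regulator of the set, stood at 92.5 and 76.2 CPM (Ppm1bfl/fl) against 98.7 and 83.0 CPM (Ppm1bCKO). The genotypes overlapped, and within each the second replicate was lower. The log2 fold change was 0.11 ± 0.18, and it turned to -0.03 without Ppm1bfl/fl replicate 2 and to -0.02 without Ppm1bCKO replicate 1. Runx2, a Runt factor that pDCs need to leave the marrow and that osteoblasts need to form, lies on chromosome 17 (44495987 to 44814797, ENSMUSG00000039153.17). Runx2 stood at 137 and 113 CPM (Ppm1bfl/fl) against 142 and 109 CPM (Ppm1bCKO), so that one genotype spanned the other. Its log2 fold change was 0.01 ± 0.19, and it turned to -0.12 without Ppm1bfl/fl replicate 2 and to -0.20 without Ppm1bCKO replicate 1. The gene shares 519 of 8837 exonic bases with the antisense gene Runx2os1.

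Levels of different genes were compared per kilobase of exon, as TMM-normalised RPKM with the exonic length of the deposited table. That length sums all isoforms and so lowers the value of genes with long alternative exons, such as Tcf4 (27382 bases). Not scaled for length, Tcf4 stood above Siglech, at 76.2 to 98.7 CPM against 19.96 to 50.4 CPM. The order by the mean of the 4 libraries was Ly6d (70.1 RPKM), Spib (24.4), Runx2 (14.2), Siglech (10.5), Tcf4 (3.20), Klk1 (2.95), Ccr9 (1.40) and Pacsin1 (1.10). Ly6d was above Spib in 4 of 4 libraries, by 2.62-fold to 3.91-fold, and Siglech above Tcf4 in 4 of 4, by 2.12-fold to 4.91-fold. The other neighbours changed places in at least 1 library and do not differ beyond their spread. Ly6d stood at the 95.2 percentile of all tested genes by this mean and Pacsin1 at the 26.4 percentile, so the set spans much of the range of expressed genes.

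**Figure D2:**
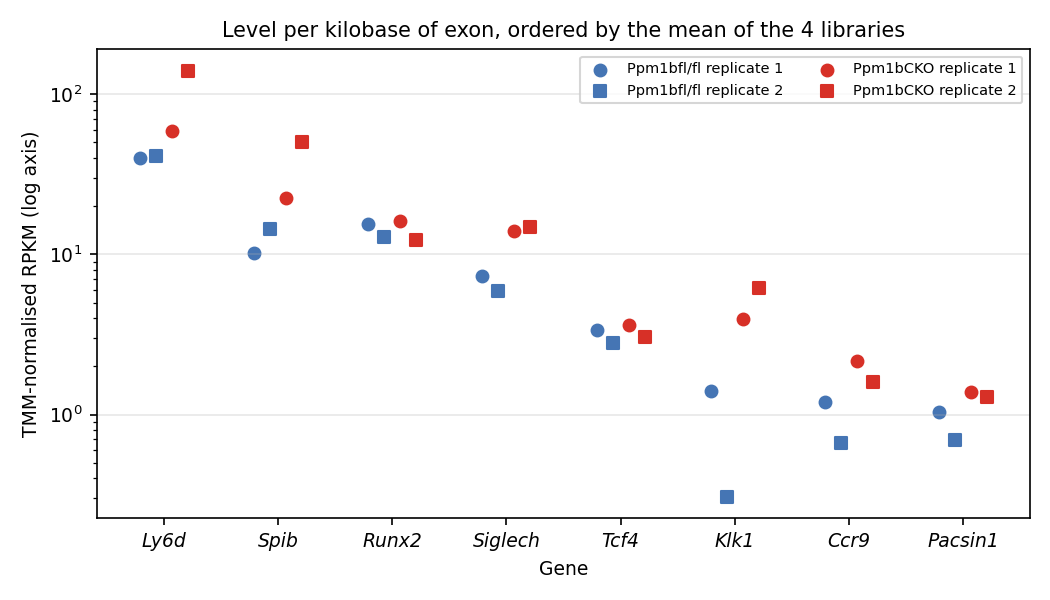
TMM-normalised RPKM (reads per kilobase of exon, scaled to library size) on a log axis, genes ordered by their mean over the 4 libraries, with colours for genotype and symbols for replicate. Ly6d lies above Spib and Siglech above Tcf4 in each of the 4 libraries, while Klk1 crosses Tcf4 and Ccr9. The exonic length sums all isoforms, and in CPM, not scaled for length, Tcf4 lies above Siglech.

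The 8 genes did not vary together between the libraries of one genotype. From Ppm1bCKO replicate 1 to replicate 2, the log2 difference was 0.09 for Siglech, -0.10 for Pacsin1, -0.42 for Ccr9, -0.25 for Tcf4 and -0.38 for Runx2. It was 1.15 for Spib, 1.25 for Ly6d and 0.62 for Klk1. Other pDC genes, described below, had a median of 0.25, with 15 of 23 higher in replicate 2. Of the B lineage markers, 19 of 20 were higher in Ppm1bCKO replicate 2 than in replicate 1, with a median log2 difference of 0.78, against 0.0029 over all tested genes. Their summed level was 333 and 338 CPM in the Ppm1bfl/fl libraries, 488 CPM in Ppm1bCKO replicate 1 and 966 CPM in replicate 2. None of the 20 was at 0 in every library. The part of B lineage cells in the values of Spib and Ly6d was not tested. Between the Ppm1bfl/fl libraries the median log2 difference of B lineage markers was 0.03, with Spib at 0.51 and Ly6d at 0.05.

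**Figure D3:**
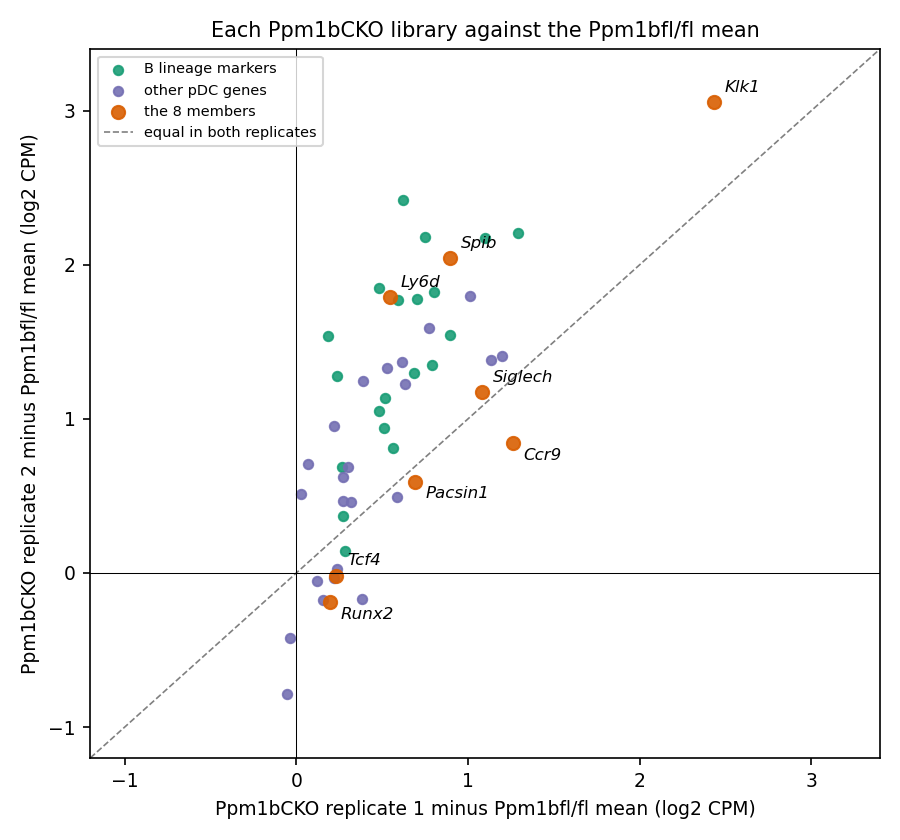
Log2 CPM of each Ppm1bCKO library minus the mean of the Ppm1bfl/fl libraries, replicate 1 across and replicate 2 upward, for the 8 genes (orange, named), 23 other pDC genes (violet) and 20 B lineage markers (green). Both axes subtract the same Ppm1bfl/fl mean. Siglech and Pacsin1 lie close to the dashed line of equal values, whereas Spib, Ly6d and Klk1 lie above it, as do 15 of 23 other pDC genes and 19 of 20 B lineage markers.

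Osteoblast markers were examined beside Runx2. Of 14 markers 12 were tested, and edgeR called 0, with 3 at an unadjusted p under 0.05, against 6.44% of all tested genes. DESeq2 called 1, against 1.2% of the genes to which it gave an adjusted p. Their median log2 fold change was 0.54, or 0.21 without Ppm1bfl/fl replicate 1 and 1.01 without Ppm1bfl/fl replicate 2. Their summed level, mostly of the collagen genes, was 238 and 488 CPM in Ppm1bfl/fl and 687 and 470 CPM in Ppm1bCKO. Bglap, which encodes osteocalcin, stood at 1.88 and 4.48 CPM (Ppm1bfl/fl) against 10.9 and 9.10 CPM (Ppm1bCKO) (1.65 ± 0.39, edgeR adjusted p = 0.277). Runx2 did not show that pattern, and the part of osteoblasts in its level was not tested.

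Other genes of pDCs, from a list that leaves out the 8, had mostly positive differences. Of 24 listed genes 23 were tested, 20 of them with a log2 fold change above 0 and 3 below, and the median was 0.45 (0.30 without Ppm1bCKO replicate 2), against -0.0032 over all tested genes. EdgeR called 0 of them, with 10 at an unadjusted p under 0.05, against 6.44% of all tested genes. DESeq2 called 4, against 1.2% of the genes to which it gave an adjusted p. The list was chosen with earlier results of these data known, so nothing is read from these counts. Cd300c, a surface receptor of the CD300 family, stood at 3.68 and 3.88 CPM (Ppm1bfl/fl) against 8.40 and 9.99 CPM (Ppm1bCKO) (1.28 ± 0.25, edgeR adjusted p = 0.139). The sodium pump subunit gene Atp1b1 had a log2 fold change of 1.24 ± 0.26, the β-ureidopropionase gene Upb1 one of 1.05 ± 0.28 and Bst2, the pDC antigen PDCA-1 that interferon also induces, one of 0.99 ± 0.25. Their edgeR adjusted p-values were 0.167, 0.378 and 0.36. These 3 genes were also higher in Ppm1bCKO replicate 2 than in replicate 1, by 0.75 to 0.81 on the log2 scale, and Cd300c by 0.25. Of the 23, 8 differed by more than 0.5 in that direction, as did 15 of 20 B lineage markers.

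Among the sensing and signalling genes that lead from Toll-like receptors 7 and 9 to interferon, edgeR called 1 of 23 tested genes, against 0.372% of all tested genes. That gene was Irf7, the transcription factor that drives interferon alpha genes, which rose from 44.1 and 45.1 CPM to 105 and 103 CPM (1.22 ± 0.16, edgeR adjusted p = 0.0204). Interferon also induces it, and the call did not hold when Ppm1bfl/fl replicate 1 was left out (1.20, edgeR adjusted p = 0.0715) or immunoglobulin genes were (1.22, edgeR adjusted p = 0.143). The receptor genes themselves, chosen after their values were seen, had log2 fold changes of 0.29 ± 0.23 (Tlr7) and -0.30 ± 0.22 (Tlr9). The protease gene Ctsl had one of 0.43 ± 0.16, and the transcription factor genes Irf9 and Irf5 had 0.33 ± 0.16 and 0.25 ± 0.17, with edgeR adjusted p-values from 0.717 to 0.723. The list median was 0.09 (0.14 without Ppm1bCKO replicate 1). Interferon genes were at the limit of detection: Ifnb1 had 1 count in 1 library, Ifna2 2 counts in 1 library and Ifna4 0 counts in all 4, which allows up to 3 counts per library, or 0.0995 to 0.132 CPM.

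Regulators of dendritic cell fate other than the 8 were divided in direction. Of 21 tested, 10 were above 0 and 11 below, and the median log2 fold change was -0.01 (0.03 to 0.06 with a library left out). Neither edgeR nor DESeq2 called any of them (0 each), and 2 (against 6.44% of all tested genes) had an unadjusted p under 0.05. Those were Irf4, a factor of conventional dendritic cells and plasma cells (0.62 ± 0.20, edgeR adjusted p = 0.619), and Id3, an inhibitor of E proteins (0.63 ± 0.24, edgeR adjusted p = 0.717). Relb and Mycl, with the next smallest p, had log2 fold changes of 0.50 ± 0.28 and 0.36 ± 0.24. Genes that act beside Tcf4, named for their role after their values were seen, had small differences: Bcl11a at -0.01 ± 0.16, Irf8 at 0.14 ± 0.17 and Id2, which opposes E proteins, at 0.22 ± 0.21.

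Conventional dendritic cell markers had a median log2 fold change of 0.18, with 15 of 20 positive. It was 0.036 without Ppm1bfl/fl replicate 1, 0.023 without Ppm1bCKO replicate 2 and 0.32 without Ppm1bCKO replicate 1. EdgeR and DESeq2 called 0 of them, and 3 had an unadjusted p under 0.05, against 6.44% of all tested genes. The chemokine receptor gene Ccr7 had the smallest p (0.85 ± 0.23, edgeR adjusted p = 0.435), followed by H2-DMb2 (0.73 ± 0.26) and the lectin genes Clec10a (0.57 ± 0.21) and Clec9a (0.41 ± 0.22). Zbtb46, a factor that separates conventional dendritic cells from pDCs, ran from 17.5 to 20.6 CPM over the 4 libraries.

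B lineage markers had a median log2 fold change of 1.08, beside 1.07 for the 8 pDC genes. It was 0.56 without Ppm1bCKO replicate 2 and 1.44 without Ppm1bCKO replicate 1, where the 8 had 0.77 and 0.98. All 20 were positive and edgeR called 0. At an unadjusted p under 0.05 there were 17, against 6.44% of all tested genes. DESeq2 called 7, against 1.2% of the genes to which it gave an adjusted p. The same shares apply to the T and NK cell and Lsk markers below. These lists were chosen with earlier results of these data known, so nothing is read from the counts. Pax5 (1.09 ± 0.22), Fcmr (1.78 ± 0.39), Ebf1 (1.40 ± 0.31) and Ms4a1 (1.71 ± 0.38) had the smallest p, at edgeR adjusted p from 0.152 to 0.208. Immunoglobulin genes, which are not in this list, went the other way. They made up 3.37% and 2.14% of counts in Ppm1bfl/fl and 0.823% and 0.975% in Ppm1bCKO (replicates 1 and 2). T and NK cell markers had a median of 0.10 (-0.09 without Ppm1bfl/fl replicate 2), with 9 of 18 positive, 0 called by edgeR, 3 at an unadjusted p under 0.05 and 1 called by DESeq2. Gzma, a granzyme gene, had the smallest p among them at 1.32 ± 0.28 (edgeR adjusted p = 0.175), whereas Eomes had a log2 fold change of -0.58 ± 0.24, Cd3d one of 0.52 ± 0.23 and Klrb1c one of 0.59 ± 0.27. Markers of the Lsk fraction had a median of -0.19 (0.17 without Ppm1bfl/fl replicate 1, -0.42 without Ppm1bfl/fl replicate 2 and -0.062 without Ppm1bCKO replicate 2), with 3 of 12 positive, and edgeR, DESeq2 and an unadjusted p under 0.05 each gave 0. Kit had a log2 fold change of -0.46 ± 0.22, Cd48 one of 0.21 ± 0.18 and Hlf one of -0.29 ± 0.33.

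**Figure D4:**
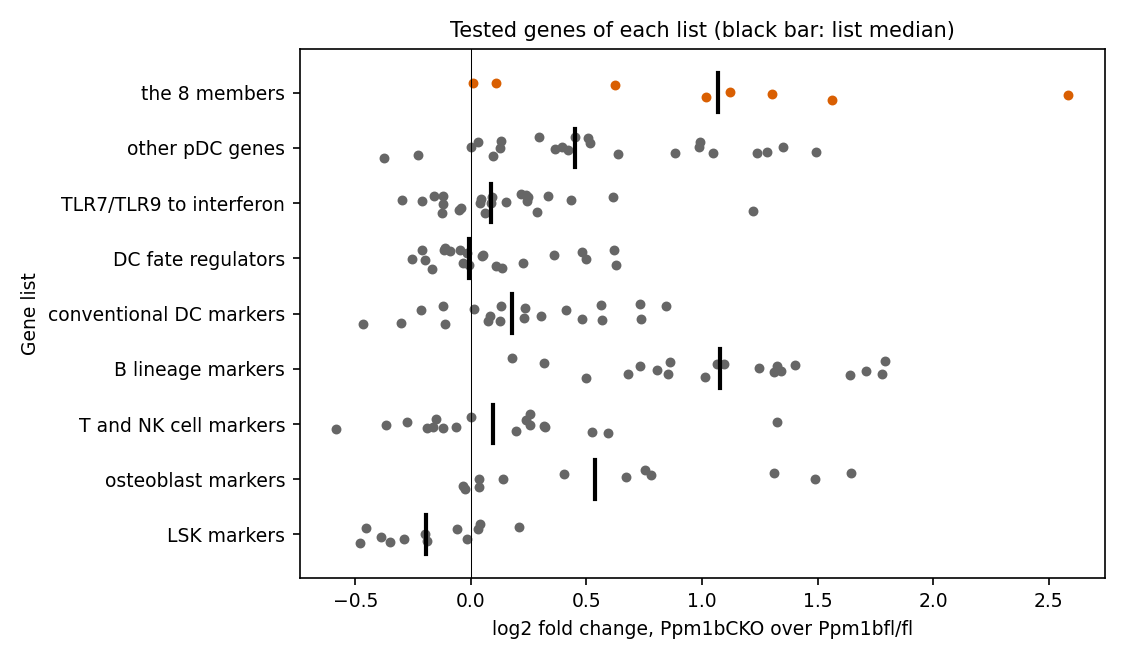
Log2 fold change of Ppm1bCKO over Ppm1bfl/fl for the tested genes of each list, 1 point per gene, with a black bar at the list median. The 8 pDC genes (orange, median 1.07) and the B lineage markers (median 1.08) have the highest medians, and the dendritic cell fate regulators centre near 0. Members and lists were chosen with earlier results of these data known, so nothing is read from this order.

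The genes whose levels over the 4 libraries were most like those of Siglech were named by a rule. The measure was the root mean square difference of log2 CPM over the 4 libraries, after each gene was centred on its own mean. Candidates were the tested genes of at least 1 average log2 CPM. The members, predicted genes, clones, and immunoglobulin and T cell receptor segments were left out. The 6 closest candidates were BC147527 (0.082), Xaf1 (0.097), Cd209d (0.10), Oas1a (0.12), Hes1 (0.12) and Rtp4 (0.12). Among all other tested genes they ranked from 3 to 16, so some closer genes were left out by the rule. Xaf1 went from 15.9 and 14.7 CPM in Ppm1bfl/fl to 30.8 CPM in both Ppm1bCKO libraries, and Oas1a from 21.8 and 18.1 to 48.3 and 53.4 CPM. Xaf1, Oas1a and Rtp4 are known as interferon-induced genes, whereas Cd209d, a C-type lectin gene, belongs to the pDC list above. Over 4 libraries many genes can share a pattern, so closeness is a description.

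The other members lay at differing distances from Siglech by the same measure. Ccr9 (0.26) ranked 180 and Pacsin1 (0.27) ranked 196 of the other tested genes, and Ly6d (0.43) ranked 1588. Spib (0.51), Tcf4 (0.52) and Runx2 (0.59) were farther, and Klk1 (1.01) was the farthest of the 8. Klk1 had the largest log2 fold change of the 8 (2.58), and its Ppm1bfl/fl libraries also differed most.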

How the data were processed

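Bulk RNA-seq was made from 4 libraries of mouse marrow cells labelled Lsk, 2 per genotype. Per the labels' protocols, RNA from pre-sorted cells was extracted with TRIzol, and the library kit was TruSeq RNA. The deposited values are raw read counts, 1 whole number per gene and library, with exonic lengths. Per the submitters' processing notes, the authors used Trim Galore 0.6.7, HISAT2 2.2.0, featureCounts 2.0.1 and mm10. Annotation release, strandedness and the treatment of multimapping reads are not given in the sources used here. Of 55399 identifiers, 55139 matched GENCODE annotation of that build for symbols, by identifier without version.

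The test was the quasi-likelihood test of edgeR 4.0.16 under R 4.3.3 (TMM, filterByExpr with minimum count 10 and total 15, robust fit, no covariates). P-values were adjusted by Benjamini-Hochberg over 16393 genes, with a threshold of 0.05. Standard errors are the absolute log2 fold change divided by the square root of F. Log2 CPM per library used a prior count of 2. The replicates of each genotype differed beyond sampling noise.

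The members and lists were chosen with earlier results of these data known. Genes named from a list were those called, plus up to 4 with the smallest p, except 2 that are not reported here. Other names were chosen after their values were seen. Alternatives were DESeq2 size factors, DESeq2 1.42.0, no low-count filter, at least 1 CPM in 2 samples, a replicate block, leaving out each library, and immunoglobulin genes left out.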

Additional observations from a re-analysis of the deposited data

How the results depend on the processing

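Over 10 alternatives per gene, the 8 pDC genes kept their sign in all but 4 of 80 values, which belong to Tcf4 and Runx2, and 5 of 80 moved by more than the replicate spread. Their median log2 fold change of 1.07 ranged from 0.77 to 1.28 with a library left out, the lowest without Ppm1bCKO replicate 2. Of the 8, 0 were called, where 61 of 16393 tested genes were. This became 4 by DESeq2 (188 of 15729 genes), 5 without the low-count filter (311 of 28388) and 3 with the replicate block (207 of 16393). Nothing is read from these counts of members. The number of called genes, 61, became 188 by DESeq2, 311 without the low-count filter, 207 with the replicate block and 0 without immunoglobulin genes, and 94 to 3336 with a library left out. The highest number came where Ppm1bCKO replicate 2, which stood apart, was the only library of its genotype. A genotype with 1 library is assumed to vary like the other. Other pDC genes had 0 calls, which became 4 by DESeq2, 6 without the filter, 4 with the replicate block and 0 to 13 with a library left out (1 without Ppm1bCKO replicate 2 and 13 without replicate 1). B lineage markers had 0 calls, then 7, 11 and 7 under these settings, and 1 to 18 with a library left out (1 without Ppm1bCKO replicate 2). T and NK cell markers had 0, then 1, 1 and 1, and 0 to 3. Osteoblast markers had 0, then 1, 2 and 1, and 0 to 4. Conventional dendritic cell markers had 0, then 1 without the filter, and 0 to 7 with a library left out. Regulators of dendritic cell fate had 0 to 5 and Lsk markers 0 to 2. The 1 call of the Toll-like receptor list was lost without immunoglobulin genes (0), and 0 to 3 were called with a library left out. Of 31 genes named from the lists, 2 changed sign in 1 setting each: Hlf (0.23) without Ppm1bfl/fl replicate 1, and Cd48 (-0.011) without Ppm1bCKO replicate 2. With a library left out, Hlf ranged from -0.68 to 0.23 and Cd48 from -0.011 to 0.40. List medians changed sign in 6 of 80 values, those of the fate regulators, the T and NK cell markers and the Lsk markers. The cause of these changes was not tested.

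The replicate numbers were not taken as pairs, because the labels do not say that a number marks a shared animal or day. Replicate differences of the genotypes correlated at 0.064 over all tested genes. The block result above is therefore given only as an alternative. With 2 libraries per genotype, an exact two-sided permutation test of a single value cannot go below p = 0.333. Counting error matters most for Klk1, which had 10 to 157 counts per library.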
